A study of Mus musculus with 7 samples.

Results

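The RNA levels of 10 genes of the Hippo pathway, its core kinases with their scaffolds, regulators and effectors (*Wwtr1*, *Yap1*, *Stk3*, *Stk4*, *Lats1*, *Lats2*, *Sav1*, *Nf2*, *Vgll4* and *Ajuba*) were analysed out of 35715 names on the array. They were taken by name, and all 14 of their probes are accounted for: 7 genes had 1 probe, *Lats2* and *Nf2* had 2 and *Stk4* had 3. No probe under another name cited a transcript of these genes.

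The Hippo pathway is a kinase cascade that restrains growth of the liver and other organs. The kinases MST2 and MST1, encoded by *Stk3* and *Stk4*, bind the scaffold protein SAV1 and activate the kinases LATS1 and LATS2, which phosphorylate the co-activators YAP (*Yap1*) and TAZ (*Wwtr1*) and so keep them out of the nucleus. NF2, also called merlin, sits at the membrane and brings LATS to its activators, AJUBA is a LIM domain protein that binds LATS and SAV1 and dampens the cascade, and VGLL4 competes with YAP and TAZ for the TEAD transcription factors. Most of this control acts on the phosphorylation, location and stability of proteins, whereas the arrays measured RNA.

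Whole liver was compared between untreated 4-week-old C57BL/6J mice of 2 genotypes, which all carried *Rbpj* flox/flox alleles. The *Rbpj*+/+ group consisted of 4 *AlfpCre*- mice without cholestasis (animals Rbpj +/+_1155, +/+_1156, +/+_1024 and +/+_991), and the *Rbpj*-/- group consisted of 3 *AlfpCre*+ mice with cholestatic liver (animals Rbpj -/-_N3, -/-_N5 and -/-_2866). The *Alfp* promoter drives Cre in the liver lineage before birth, so cells outside that lineage keep *Rbpj*, and the effect of genotype and the effect of cholestasis cannot be told apart. Each animal gave 1 array of 1 dye, and all signals are log2 intensities after the 75th percentile of the array was subtracted, so that 0 is the 75th percentile and every change is relative to it. Where values of all animals follow without names, they stand in the order of animals given here.

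*Rbpj* itself was lower in *Rbpj*-/- liver. Its probe on chromosome 5 (chr5:54048503-54048562, mm9) read 0.97, 0.29, 0.33 and 0.81 in *Rbpj*+/+ and -0.35, -0.78 and -0.48 in *Rbpj*-/- liver. The log2 fold change was -1.13 (SE 0.24, limma adjusted p = 0.0115). The groups did not overlap. Without scaling between arrays it was -0.41 (limma adjusted p = 0.393), with all dim probes tested its adjusted p was 0.108, and with another background correction (normexp) it was -0.66 (limma adjusted p = 0.0174). The other probe under that name lies on chromosome 6 by the array's design and had a log2 fold change of -1.63 with overlapping groups (limma adjusted p = 0.0722), a call that was lost under 9 of 18 alternative settings. Which exons the deletion removes is not given in the sources used here. The 75th percentile of intensity ranged from 57.46 to 102.6 on *Rbpj*+/+ arrays and from 118.1 to 142.5 on *Rbpj*-/- arrays. Arrays +/+_1156 and -/-_N3 stood apart with brighter dim probes, with median intensities of 18.7 and 29.6 against 4.99 to 7.75 on the other arrays. All *Rbpj*+/+ arrays lay in the first row of the slide and all *Rbpj*-/- arrays in the other, so that row and genotype cannot be told apart.

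The promoters of the pair of genes that rose and of *Yap1*, the paralogue of *Wwtr1*, are printed because TEAD factors are the partners of YAP and TAZ and RBPJ is the protein that was deleted. They run from 250 bases before to 50 bases after the start of the RefSeq transcript on GRCm38.p6, 5′ to 3′ on the strand of the gene. Capitals mark the letters GGAATG or its reverse complement CATTCC, the core that TEAD factors bind, and TGGGAA or TTCCCA, the core that RBPJ binds. They are *Wwtr1* (the first of 2 starts that RefSeq lists, chr3:57575861-57576160, minus strand), *Yap1* (chr9:8004547-8004846, minus strand) and *Ajuba* (chr14:54577612-54577911, minus strand).
Wwtr1: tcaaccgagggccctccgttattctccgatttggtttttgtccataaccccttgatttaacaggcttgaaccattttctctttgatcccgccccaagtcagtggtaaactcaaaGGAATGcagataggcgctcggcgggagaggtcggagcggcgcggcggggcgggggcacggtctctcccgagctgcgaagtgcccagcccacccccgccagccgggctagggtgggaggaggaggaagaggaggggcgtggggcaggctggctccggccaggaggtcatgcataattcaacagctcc
Yap1: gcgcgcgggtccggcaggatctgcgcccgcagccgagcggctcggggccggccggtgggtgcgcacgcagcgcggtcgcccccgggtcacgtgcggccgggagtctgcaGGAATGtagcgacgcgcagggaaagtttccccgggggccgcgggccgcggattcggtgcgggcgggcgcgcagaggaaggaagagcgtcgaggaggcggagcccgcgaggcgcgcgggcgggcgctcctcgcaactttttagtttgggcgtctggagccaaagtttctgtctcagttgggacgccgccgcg
Ajuba: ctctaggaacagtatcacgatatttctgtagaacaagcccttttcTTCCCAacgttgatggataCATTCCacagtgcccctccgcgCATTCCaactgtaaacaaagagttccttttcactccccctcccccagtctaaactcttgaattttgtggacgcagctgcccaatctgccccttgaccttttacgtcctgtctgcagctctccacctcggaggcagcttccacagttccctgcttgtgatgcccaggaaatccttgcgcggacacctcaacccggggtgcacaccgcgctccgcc

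*Wwtr1* and *Yap1* each held 1 match to the TEAD core, with its first base at -136 and -141 from the start, and neither held the RBPJ core. *Ajuba* held 2 matches to the TEAD core, at -186 and -164, and 1 to the RBPJ core at -205. RefSeq promoters were matched for 9 of the 10 genes, with 12 promoters in all, and none was found for *Stk3*. The TEAD core was present in 6 of these 9 genes (*Wwtr1*, *Yap1*, *Lats2*, *Sav1*, *Vgll4* and *Ajuba*) and in 16.6% of 27025 genes with promoters of this length, while the RBPJ core was present in 4 of the 9 (*Sav1*, *Nf2* at an alternative start, *Vgll4* and *Ajuba*) and in 28.3% of all genes. The TEAD core thus occurred in the promoters of both genes that rose and in that of *Yap1*, which did not pass the test. Both strands were searched, and in *Sav1* the TEAD core and one match to the RBPJ core share bases. A match of letters is a description and was not measured as a bound site.

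Of the 14 probes, 12 cleared the background on every array of 1 genotype or both and were tested. *Wwtr1* and *Ajuba* rose in *Rbpj*-/- liver, and the other 10 probes did not pass the limma test at an adjusted p of 0.1. Thus 2 of 12 probes (16.7%) were called, 2 higher and 0 lower. The counts were the same at an unadjusted p below 0.05 and with the version of the shrinkage t run here. In the study's own shrinkage t on these arrays, *Ajuba* was also higher but did not pass a false discovery rate of 0.1. Of all 24536 tested probes 33.6% were called in either direction and 14.4% were called higher. The share of Hippo probes called was below the former and close to the latter. The median log2 fold change of the Hippo probes was 0.02 against -0.12 for all tested probes. The same 2 probes, 16.7%, had groups that did not overlap, against 35.6% of all tested probes.

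**Figure D1:**
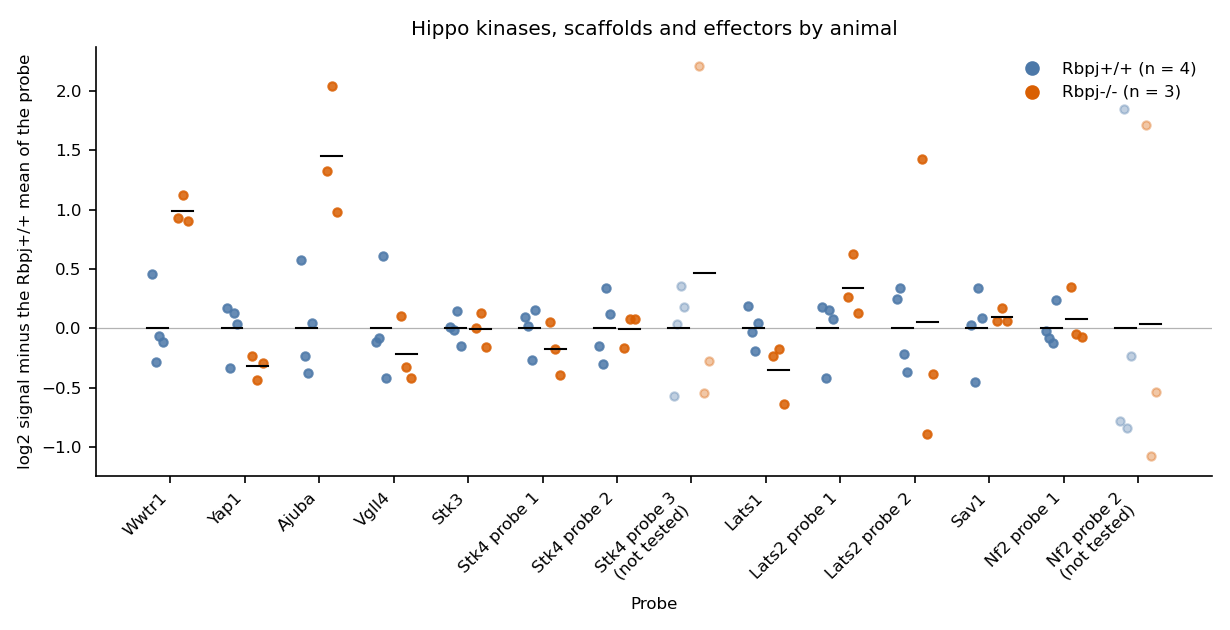
Signal of the 14 probes by animal, on the y axis as log2 signal minus the *Rbpj*+/+ mean of that probe, for 4 *Rbpj*+/+ animals in blue and 3 *Rbpj*-/- animals in orange. Black lines are group means and pale points are the 2 probes that were not tested. The groups are apart for *Wwtr1* and *Ajuba* and overlap for the other tested probes.

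*Wwtr1* encodes TAZ, which shares with YAP the binding of TEAD factors. Its probe (chr3:57259999-57260058, mm9) read 1.01 in animal +/+_1155, 0.27 in +/+_1156, 0.49 in +/+_1024 and 0.44 in +/+_991, and 1.48 in -/-_N3, 1.68 in -/-_N5 and 1.46 in -/-_2866. All *Rbpj*-/- animals lay above all *Rbpj*+/+ animals, of which +/+_1155 was the highest. The mean went from 0.55 ± 0.32 (SD, n = 4) to 1.54 ± 0.12 (SD, n = 3), a 1.99-fold rise (95% interval 1.41 to 2.81). The log2 fold change was 0.99 (SE 0.22, limma adjusted p = 0.0145), and the exact two-sided permutation test gave p = 0.0571, where 0.0286 is the smallest p that 35 splits of 7 animals allow.

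*Yap1* was bright on every array and did not pass the test. Its probe (chr9:7932025-7932084, mm9) read 4.55, 4.04, 4.50 and 4.41 in *Rbpj*+/+ animals +/+_1155, +/+_1156, +/+_1024 and +/+_991, and 4.14, 3.94 and 4.08 in *Rbpj*-/- animals -/-_N3, -/-_N5 and -/-_2866. The *Rbpj*-/- animals lay at the lower end, and +/+_1156 fell among them. The log2 fold change was -0.32 (95% interval -0.77 to 0.12, limma adjusted p = 0.259; exact permutation p = 0.114). Without animal +/+_1156 the log2 fold change was -0.43 (limma adjusted p = 0.0854), and with arrays weighted by their quality it was -0.41 (limma adjusted p = 0.0806), both past the threshold.

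The changes of the paralogues differed. Per animal, log2 *Wwtr1* minus log2 *Yap1* was -3.55, -3.77, -4.01 and -3.97 in *Rbpj*+/+ liver and -2.67, -2.26 and -2.62 in *Rbpj*-/- liver, with no overlap. The shift of this log ratio was 1.31, or 2.48-fold in favour of *Wwtr1* (exact two-sided permutation p = 0.0286, 0.0857 after Benjamini-Hochberg adjustment over the 3 pairs compared, below the threshold of 0.1). A factor common to all probes of an array cancels in this ratio, and its value within 1 genotype says nothing about which RNA is more abundant, because the genes were read by different probes.

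*Ajuba* had the larger rise. Its probe (chr14:55186812-55186871, mm9) read 0.15 in animal +/+_1155, -0.66 in +/+_1156, -0.80 in +/+_1024 and -0.38 in +/+_991, and 0.90 in -/-_N3, 1.62 in -/-_N5 and 0.56 in -/-_2866. The groups did not overlap, and again +/+_1155 was the highest of the *Rbpj*+/+ animals. The mean went from -0.43 ± 0.42 (SD, n = 4) to 1.03 ± 0.54 (SD, n = 3), a 2.74-fold rise (95% interval 1.67 to 4.50). The log2 fold change was 1.45 (SE 0.32, limma adjusted p = 0.0135; exact permutation p = 0.0286). *Wwtr1* and *Ajuba* were called under 18 of 19 alternative settings each, and under the remaining one, which tested all probes however dim, their adjusted p was 0.125 and 0.115.

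*Vgll4*, whose product opposes YAP and TAZ on TEAD, was read by a dim probe (chr6:114871350-114871409, mm9). The values were -2.09, -2.05, -1.36 and -2.39 in *Rbpj*+/+ and -1.87, -2.30 and -2.39 in *Rbpj*-/- liver. The groups overlapped throughout, and the log2 fold change was -0.21 (95% interval -0.83 to 0.41, limma adjusted p = 0.599).

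**Figure D2:**
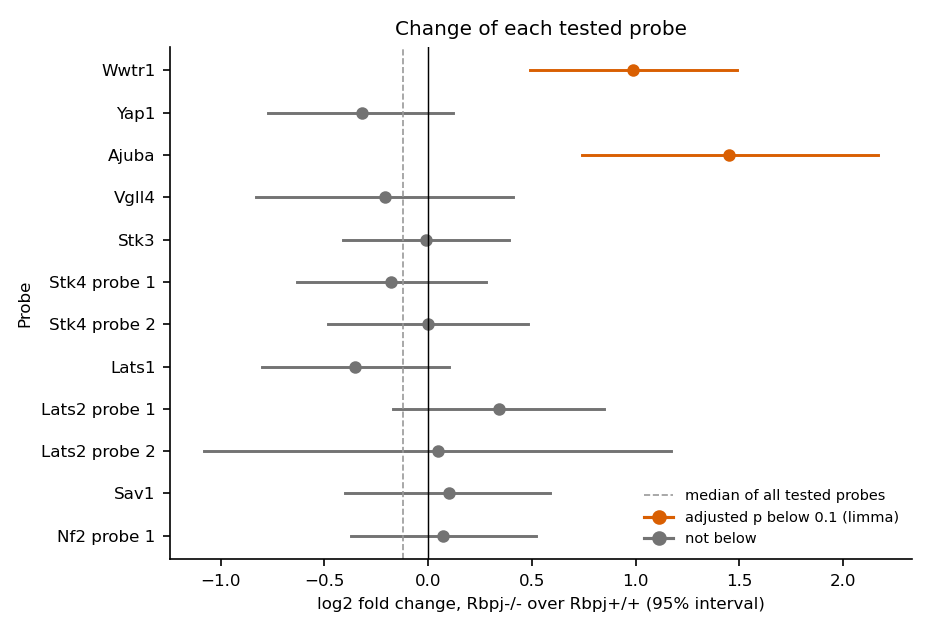
Log2 fold change, *Rbpj*-/- over *Rbpj*+/+, of the 12 tested probes with 95% intervals from limma on the x axis. Orange marks an adjusted p below 0.1 and the dashed line is the median of all tested probes, at -0.12. *Ajuba* (1.45) and *Wwtr1* (0.99) have intervals above 0, and the intervals of the other 10 probes include 0.

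The upstream kinases were read at nearly the same level in both genotypes. *Stk3*, encoding MST2, read 0.65, 0.62, 0.78 and 0.49 in *Rbpj*+/+ and 0.64, 0.76 and 0.48 in *Rbpj*-/- liver, so that each group spanned almost the range of the other. The log2 fold change was -0.01, with a 95% interval of -0.41 to 0.39 (limma adjusted p = 0.971). *Stk4*, encoding MST1, was read by a bright probe at 1.60, 1.45, 2.09 and 1.87 in *Rbpj*+/+ and 1.59, 1.83 and 1.83 in *Rbpj*-/- liver (chr2:163980867-163980926, mm9). Its log2 fold change was 0.00, with a 95% interval of -0.48 to 0.48 (limma adjusted p = 0.998). The dim probe of the same *Stk4* transcript ranged from -2.39 to -1.97 in *Rbpj*+/+ and from -2.52 to -2.07 in *Rbpj*-/- liver, with a log2 fold change of -0.18 (-0.63 to 0.28, limma adjusted p = 0.546). The remaining *Stk4* probe, designed on another transcript, was well above background on 0 of 7 arrays. The log ratio of *Stk3* to *Stk4* shifted by -0.01 (exact permutation p = 0.971).

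*Lats1* and *Lats2*, which encode the kinases that act on YAP and TAZ directly, differed in their changes, although neither passed the test alone. *Lats1* read -0.92, -1.14, -1.30 and -1.06 in *Rbpj*+/+ and -1.34, -1.28 and -1.74 in *Rbpj*-/- liver (chr10:7432671-7432730, mm9). The *Rbpj*-/- animals were at the low end and overlapped with +/+_1024, and the log2 fold change was -0.35 (95% interval -0.80 to 0.10, limma adjusted p = 0.229; exact permutation p = 0.0857).

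*Lats2* was read by a probe for transcript variant A at 1.26, 0.66, 1.23 and 1.16 in *Rbpj*+/+ and 1.34, 1.70 and 1.21 in *Rbpj*-/- liver (chr14:58308807-58308866, mm9). Animal +/+_1156 was far below the other *Rbpj*+/+ animals, and the log2 fold change was 0.34 (95% interval -0.17 to 0.85, limma adjusted p = 0.296; exact permutation p = 0.171). With normexp, the log2 fold change was 0.41 for *Lats2* (limma adjusted p = 0.0809) and -0.30 for *Lats1* (limma adjusted p = 0.0743), both past the threshold. *Lats2* also passed with the percentile taken over probes detected on all arrays, at 0.42 (limma adjusted p = 0.0976). The probe for the other *Lats2* transcript, variant B, read -1.94, -1.85, -2.40 and -2.56 in *Rbpj*+/+ and -0.76, -3.08 and -2.57 in *Rbpj*-/- liver. Animal -/-_N3 was the highest and -/-_N5 the lowest of all 7, and the interval of its log2 fold change of 0.05 reached from -1.08 to 1.17 (limma adjusted p = 0.955). Without -/-_N3 it was -0.64 (limma adjusted p = 0.175).

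The log ratio of *Lats1* to *Lats2* was -2.17, -1.80, -2.52 and -2.21 in *Rbpj*+/+ and -2.67, -2.98 and -2.94 in *Rbpj*-/- liver. The groups did not overlap, and the shift was -0.69, or 0.621-fold (exact two-sided permutation p = 0.0571, 0.0857 after adjustment over the 3 pairs). With the mean of both *Lats2* probes in place of the brighter one the shift was -0.54, with the same adjusted p. With 1 animal fewer the smallest exact p is higher, and the adjusted p of both pairs that passed was then 0.1 to 0.15, without a change of direction.

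**Figure D3:**
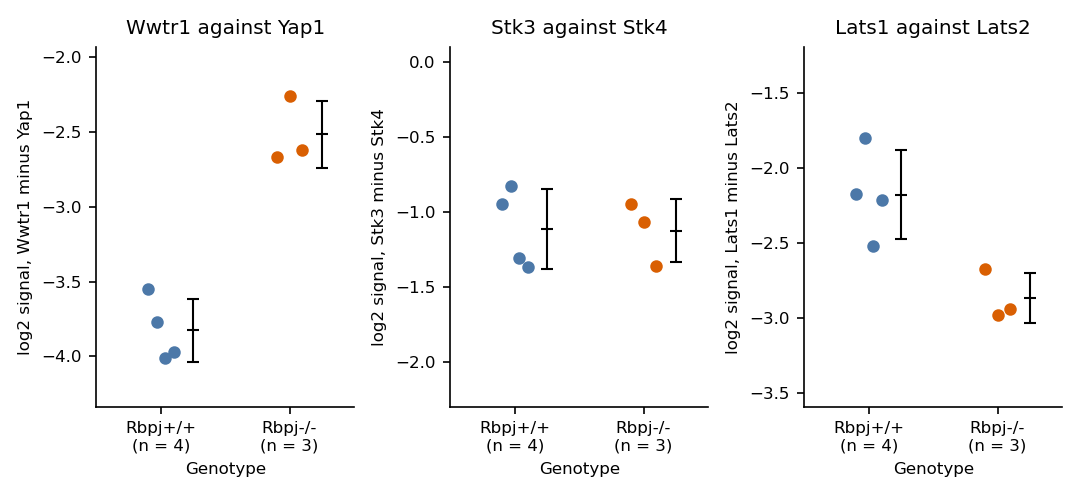
Log2 signal of one gene minus that of its paralogue in each animal (points), with mean and SD beside them, for 4 *Rbpj*+/+ and 3 *Rbpj*-/- animals. The y axes cover equal spans. The genotypes are apart for *Wwtr1* against *Yap1* (shift 1.31) and for *Lats1* against *Lats2* (shift -0.69), and overlap for *Stk3* against *Stk4* (shift -0.01).

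The scaffolds were close to their control levels. *Sav1*, encoding the partner of MST kinases, read 1.92, 1.44, 2.23 and 1.98 in *Rbpj*+/+ and 1.95, 2.06 and 1.95 in *Rbpj*-/- liver, and the latter lay within the range of the former. The log2 fold change was 0.10 (95% interval -0.40 to 0.59, limma adjusted p = 0.774). *Nf2*, encoding merlin, read 0.04, -0.02, -0.06 and 0.30 in *Rbpj*+/+ and 0.41, 0.02 and -0.01 in *Rbpj*-/- liver, with -/-_N3 the highest and a log2 fold change of 0.07 (95% interval -0.37 to 0.52, limma adjusted p = 0.811). The other *Nf2* probe was well above background on 2 of 4 *Rbpj*+/+ and 2 of 3 *Rbpj*-/- arrays and was not tested. It read -0.83 in +/+_1156 and -0.97 in -/-_N3 against -3.76 to -2.92 on the other arrays, and these are the 2 arrays with brighter dim probes. Over all 10 probes that did not pass, log2 fold changes lay between -0.35 and 0.34.

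The directions given here hold relative to the 75th percentile. Without any scaling between arrays the median log2 fold change of all tested probes was 0.61, that of *Yap1* was 0.41, that of *Lats1* 0.38 and that of *Vgll4* 0.52, all below that median, while *Wwtr1* was at 1.72 and *Ajuba* at 2.18. On that scale 7 of the 12 probes passed, all higher, beside 43.1% of all tested probes (those of *Wwtr1*, *Ajuba*, *Stk3*, *Sav1*, 1 of *Stk4*, 1 of *Lats2* and 1 of *Nf2*).

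Around these genes, 88 other genes of the pathway were read by role, of which 72 were tested by their brightest tested probe. Of these, 21 rose, 6 fell and 45 did not pass, against 2742 higher and 3671 lower of 18760 tested genes (34.2% called). The median log2 fold change was 0.26 for the pathway genes and -0.13 for all tested genes. The count of 27 called pathway genes was 11 without animal -/-_N5, 14 without -/-_N3, 16 without +/+_1024 and 18 without +/+_991, and 17 without +/+_1156 and -/-_N3 together. The share of all tested probes called fell too, from 33.6% to 18.7%, 22.4%, 22.0%, 25.8% and 28.3% in the same order.

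**Figure D4:**
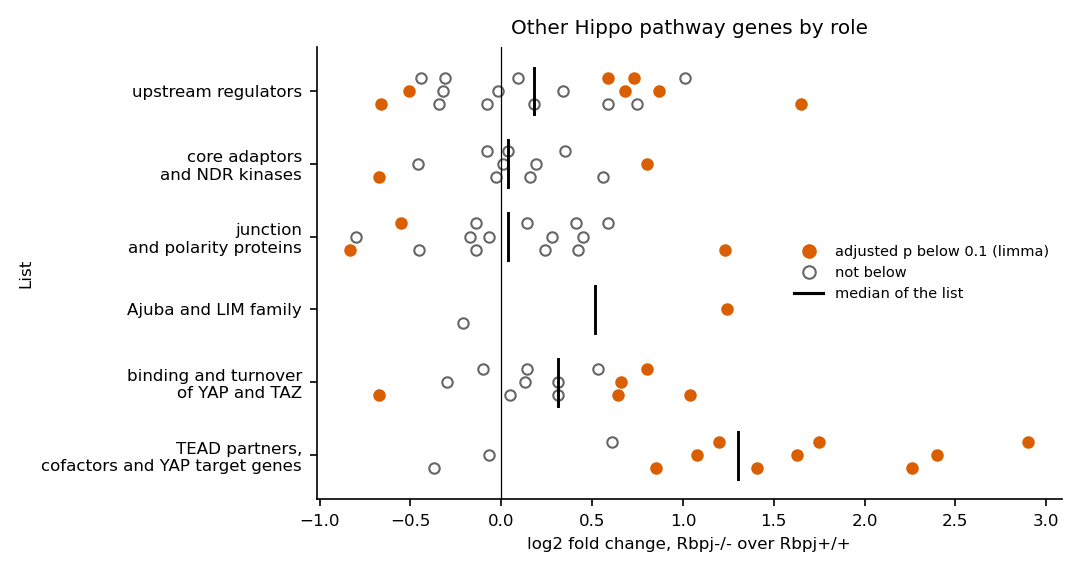
Log2 fold change, *Rbpj*-/- over *Rbpj*+/+, of the tested genes of 6 pathway lists on the x axis. Filled points have a limma adjusted p below 0.1 and vertical lines are list medians. In the list of TEAD partners, cofactors and YAP target genes 9 of 12 genes are filled, all above 0, with a median of 1.30. Of all tested genes 34.2% had a limma adjusted p below 0.1.

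Among TEAD partners, cofactors and target genes of YAP, 9 of 12 tested genes rose and 0 fell in limma, with a median log2 fold change of 1.30. At an unadjusted p below 0.05 the counts were the same, and with the version of the shrinkage t run here 8 rose and 0 fell. In the study's own shrinkage t on these arrays, *Afp*, *Ccnd1*, *Itgb2* and *Tead2* passed a false discovery rate of 0.1. *Ctgf*, *Birc5* and *Tead1* were higher there but did not pass. Of all 18760 tested genes 2742 rose and 3671 fell in limma, with a median log2 fold change of -0.13. The TEAD factors carry YAP and TAZ on DNA: *Tead1* rose by 0.85 (SE 0.25, limma adjusted p = 0.0416) and *Tead2* by 1.08 (SE 0.28, limma adjusted p = 0.0263), *Tead3* was at -0.37 (limma adjusted p = 0.395), and *Tead4* was not tested. The largest rises were those of *Afp*, the fetal plasma protein (2.90, SE 0.34), *Birc5*, the apoptosis inhibitor survivin that is made in dividing cells (2.40, SE 0.48), *Ctgf*, a matricellular growth factor (2.26, SE 0.57), and *Ccnd1*, cyclin D1 (1.75, SE 0.28), with limma adjusted p of 0.00127, 0.00995, 0.023 and 0.00396. *Amotl2* and *Cyr61* did not pass, at -0.07 and 0.61. Several of these genes (*Tead2*, *Afp*, *Itgb2*, *Gpc3*, *Ctgf* and *Cyr61*) were measured by the study in these mice by qRT-PCR. From these same arrays the study also listed *Tead1*, *Tead2*, *Afp*, *Birc5*, *Ccnd1*, *Ctgf* and *Itgb2* with positive log2 fold changes. The list is thus no independent evidence of its direction, and *Birc5* also stands in the list of proliferation markers.

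Among upstream regulators 5 of 19 rose and 2 fell, a share near the 34.2% called among all tested genes. *Map4k4*, a kinase that acts on LATS in parallel with MST, went from 0.61 ± 0.02 (SD, n = 4) to 2.26 ± 0.31 (SD, n = 3), with a log2 fold change of 1.65 (SE 0.20, limma adjusted p = 0.0014). The RASSF proteins bind MST kinases through a shared domain: *Rassf4* rose by 0.87 (SE 0.28, limma adjusted p = 0.0559) and *Rassf1* by 0.73 (SE 0.20, limma adjusted p = 0.0304), while *Rassf5* fell by 0.51 (SE 0.20, limma adjusted p = 0.0935). *Rassf2*, *Rassf3* and *Rassf6* did not pass, at 1.01, 0.34 and 0.09. The other upstream gene that fell was *Taok3*, a kinase that acts on MST, at -0.66 (SE 0.21, limma adjusted p = 0.0538). *Mark2*, a polarity kinase, rose by 0.68 (SE 0.19, limma adjusted p = 0.032). Among core adaptors and NDR kinases 1 of 11 rose and 1 fell, a share below that 34.2%. *Pdcd10*, a partner of MST-like kinases in the STRIPAK complex, was at 0.80 (SE 0.28, limma adjusted p = 0.0717), and *Mob1b*, the co-activator of LATS, was at -0.67 (SE 0.22, limma adjusted p = 0.0556). *Mob1a* was not tested.

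Of the junction and polarity proteins 1 of 16 rose and 2 fell, a share below the 34.2% called among all tested genes. *Iqgap1*, a scaffold protein of the cytoskeleton and of cell junctions, went from 1.11 ± 0.10 (SD, n = 4) to 2.33 ± 0.17 (SD, n = 3), with a log2 fold change of 1.23 (SE 0.18, limma adjusted p = 0.00298). *Pard3* and *Llgl2*, which set up apical and basolateral membrane, fell by 0.83 (SE 0.22) and 0.55 (SE 0.21) on the log2 scale, with limma adjusted p of 0.0303 and 0.0838. Of the relatives of AJUBA, *Wtip* rose by 1.24 (SE 0.28, limma adjusted p = 0.0145) and *Limd1* was at -0.21 (limma adjusted p = 0.492).

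Of the 13 tested genes for binding and turnover of YAP and TAZ, 4 rose and 1 fell. This share was near the 34.2% called among all tested genes. The 14-3-3 proteins hold phosphorylated YAP and TAZ in the cytoplasm: *Ywhah* rose by 1.04 (SE 0.23, limma adjusted p = 0.0136), *Ywhaq* by 0.80 (SE 0.25, limma adjusted p = 0.0503) and *Ywhaz*, whose groups overlapped, by 0.66 (SE 0.25, limma adjusted p = 0.085). The other 3 of the 6 tested, *Ywhab*, *Ywhag* and *Ywhae*, did not pass, at 0.53, 0.31 and -0.10 (limma adjusted p of 0.138, 0.339 and 0.724). *Otub2*, a deubiquitinase, fell by 0.67 (SE 0.25, limma adjusted p = 0.078).

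Markers of several cell types also differed between the genotypes. In whole liver, fewer cells of a type and less RNA per cell cannot be told apart. Of all 18760 tested genes 2742 rose and 3671 fell in limma. Of 6 tested hepatocyte markers 4 fell and 0 rose, and their summed signal, in units of the 75th percentile, was 3000 to 4050 in *Rbpj*+/+ and 1910 to 2300 in *Rbpj*-/- liver. For stellate cells and fibroblasts 5 of 6 tested markers rose (sums of 113 to 181 against 209 to 242), for macrophages 5 of 6 (59.6 to 75.4 against 136 to 174) and for proliferation 6 of 6 (12.3 to 25.2 against 49.6 to 67.1). Of 6 leukocyte markers 3 rose and 3 fell (7.23 to 23.6 against 31.3 to 67.6), and of 6 tested cholangiocyte markers 2 rose (3.69 to 4.30 against 4.74 to 11.5). Endothelial sums overlapped, at 32.4 to 44 and 33.9 to 48.1, with 2 of 6 markers higher and 1 lower, and so did erythroid sums, at 228 to 515 and 99.6 to 429, with 1 of 3 lower. *Epcam* and *Des* were not tested, and no tested marker was at 0. The part of these cell types in the rise of *Wwtr1* and *Ajuba* was not tested.

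**Figure D5:**
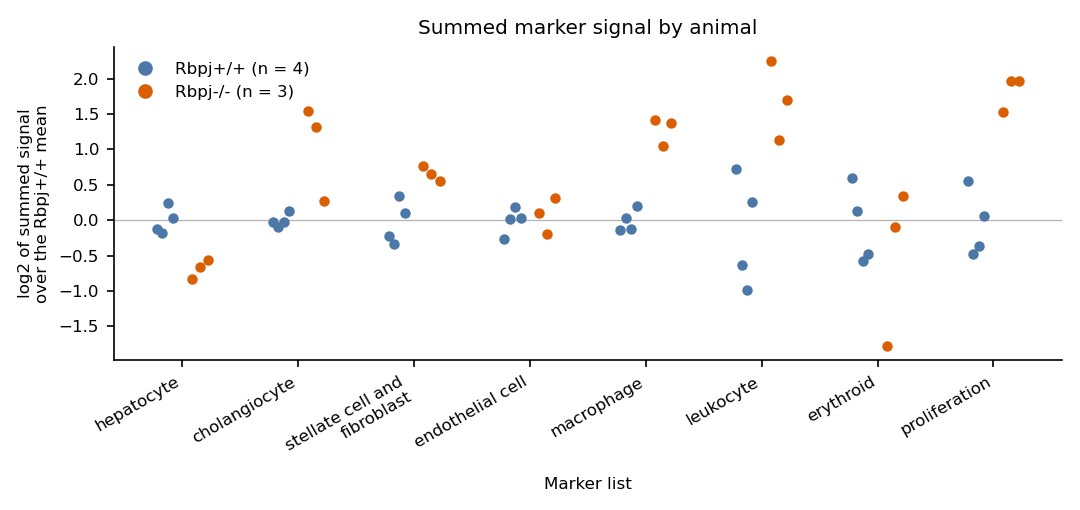
Summed signal of the tested markers of each list by animal, as log2 of the ratio to the *Rbpj*+/+ mean on the y axis, for 4 *Rbpj*+/+ animals in blue and 3 *Rbpj*-/- animals in orange. The genotypes are apart for the hepatocyte (lower) and the cholangiocyte, stellate, macrophage, leukocyte and proliferation lists (higher), and overlap for the endothelial and erythroid lists.

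By root-mean-square difference of centred log2 values over the 7 animals, the genes with the pattern most like that of *Wwtr1* were *Snx12* (0.043), *Rras2* (0.082) and *Trak2* (0.088), with log2 fold changes of 1.0, 0.89 and 1.11. The genes most like *Yap1* were *Eif4b* (0.044), *Akt2* (0.061) and *Lpar6* (0.062), with log2 fold changes of -0.31, -0.42 and -0.33.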

How the data were processed

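RNA of 7 whole livers was measured on 1-dye mouse arrays (design of mm9), 1 per animal. The intensity values deposited by the authors come from Feature Extraction 10.7.3.1 (per the submitters' processing notes) and are background-subtracted and detrended within the array, with mean and local background intensities and quality marks beside them. A series matrix of log2 values was deposited by the authors after normalization and centring of each probe on its median, and served as an alternative only.

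After removal of controls and of spots flagged non-uniform or outlying (146 probe values), repeated spots were averaged as log2 values, from which the 75th percentile of their array was subtracted. No spot was saturated. Between 41.07% and 64.87% of probes were well above background, and precision is limited by the number of arrays. Testing required a probe to be positive, significant and well above background on every array of either genotype. The test was that of limma 3.58.1 (R 4.3.3), with p-values adjusted by Benjamini-Hochberg across 24536 probes and called below 0.1, as in the methods, with a version of the shrinkage t named there as an alternative. The exact two-sided permutation test used the absolute difference of means. Steps were tested on simulated data. Tables and figures were made in Python 3.11.15 with pandas 2.3.3 and matplotlib 3.10.9.

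Genes named are all members and their probes, *Rbpj*, of each pathway list the 4 called genes with the largest change and all genes of lists of at most 4, *Iqgap1*, *Mob1a*, *Mob1b*, *Tead1* to *Tead4*, and the 3 genes nearest in pattern to *Wwtr1* and *Yap1*. *Amotl2*, *Cyr61*, *Gpc3*, *Itgb2*, *Taok3* and the RASSF and 14-3-3 genes outside this rule were named after their values were seen. The members and lists were chosen with earlier results of these data known. Protein, histology and qRT-PCR data were not analysed here. The result for 1 marker gene is not reported here.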

Additional observations from a re-analysis of the deposited data

Results flagged for a closer look

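In *Lats2*, the probe for transcript variant A read 0.66 in *Rbpj*+/+ animal +/+_1156 and 1.16 to 1.26 in the other *Rbpj*+/+ animals. The gap between +/+_1156 and the nearest of them took 0.829 of the range of the group, just above the critical share for 4 values. It was the only one of 14 *Rbpj*+/+ groups of values (the tested Hippo and *Rbpj* probes) past it, where chance flags about 1 in 20. Without +/+_1156 the log2 fold change of *Lats2* was 0.20 and the log ratio of *Lats1* to *Lats2* shifted by -0.56.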

How the results depend on the processing

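The alternatives were normexp, quantile normalization, the percentile over probes detected on all arrays, compromised spots kept, the series matrix, no filter or a stricter one for dim probes, limma-trend, array weights, the shrinkage t, a threshold of 0.05, the mean over probes, arrays +/+_1156 and -/-_N3 left out, each animal left out and, added after the data were seen, no scaling between arrays. The number of Hippo probes called (2) was 4 with normexp (40.7% of all tested probes called), 3 with the percentile over detected probes (34.2%) and with array weights (41.3%), 7 without scaling (43.1%), 0 in limma when dim probes were kept (3.66%; 2 Hippo probes at an unadjusted p below 0.05), and 2 to 3 with each animal left out (18.7% to 36.7%). The 27 pathway genes called became 50 without scaling, 7 without the filter, 15 with the shrinkage t (21.8% of all tested probes) and with a threshold of 0.05, 17 without +/+_1156 and -/-_N3 (28.3%), and 11 to 29 with each animal left out. The *Rbpj* probe on chromosome 5 was at -0.41 without scaling (limma adjusted p = 0.393), at -0.66 with normexp (0.0174) and at -1.13 without the filter (0.108), and that on chromosome 6 lost its call under 9 of 18 alternatives and ranged from -2.23 to -0.69. Directions turned for uncalled probes. Without scaling the log2 fold change was 0.41 for *Yap1*, 0.72 for *Stk3*, 0.55 for the dim *Stk4* probe, 0.38 for *Lats1* and 0.52 for *Vgll4*. *Stk3* was at 0.06 with normexp, 0.07 with the percentile over detected probes and 0.01 with array weights. With array weights the bright *Stk4* probe was at -0.06, *Lats2* variant B at -0.12, *Sav1* at -0.00 and *Nf2* at -0.03, and without +/+_1156 and -/-_N3 they were at -0.02, -0.53, -0.04 and -0.09. *Lats2* variant B was at -0.20 with normexp. With each animal left out these ranged from -0.08 to 0.06 (*Stk3*), -0.10 to 0.11 (*Stk4*), -0.64 to 0.52 (*Lats2* variant B), -0.05 to 0.21 (*Sav1*) and -0.06 to 0.15 (*Nf2*). The shift of *Stk3* against *Stk4* was 0.08 with the mean over probes and -0.10 to 0.10 with each animal left out. Without +/+_1156 and -/-_N3 the shifts of *Wwtr1* against *Yap1* and of *Lats1* against *Lats2* were 1.41 and -0.66 (adjusted exact permutation p = 0.15 for both), and with each animal left out 1.18 to 1.41 and -0.80 to -0.56. The cause of these differences was not tested. No paired analysis was possible because the genotypes share no replicate numbers. Dim probes, such as those of *Vgll4* and *Lats2* variant B, limit what could be seen.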
